A study of Mus musculus with 56 samples.

Results

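PU.1 sites gained after IL-4 were chosen by the peaks themselves. The peaks of the 4 PU.1 ChIP-seq samples were merged where they overlapped by at least 1 bp, and a merged region was kept if it held a peak in both samples exposed to IL-4 for 1 hr and in neither untreated sample. The rule found 3853 of 107213 merged regions (3.59%). Regions of the reverse kind, with a peak in both untreated and in neither IL-4 sample, numbered 2496 (2.33%) and are called lost sites. A peak in all 4 samples was held by 38796 regions. The cells were bone marrow-derived macrophages (BMDMs) of wild-type C57BL/6 mice aged 8 to 12 weeks, differentiated for 6 days with L929 supernatant, a source of M-CSF. They were left untreated (ctrl) or received IL-4 at 20 ng/ml for 1 hr, and chromatin was cross-linked with DSG and formaldehyde. The same 2 conditions were measured with p300, HDAC1, HDAC2, HDAC3, H3K27Ac, RNAPII-pS5, and RNAPII-pS2 antibodies, in 2 samples per condition. RNAPII and p65 were also measured after 24 hr of IL-4 pretreatment (IL-4 PT) or none, followed by 1 hr of LPS at 100 ng/ml or none. The labels number the replicates but do not say whether they came from separate animals, so the spread between them may be technical.

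PU.1, encoded by Spi1, is an ETS-family transcription factor that binds a purine-rich motif around GGAA and, with C/EBP, AP-1, and RUNX proteins, sets up the enhancer repertoire of macrophages. IL-4 acts through its receptor and Janus kinases on STAT6, which enters the nucleus as a dimer and binds palindromic TTC and GAA half-sites. The spacing of 4 bases between the half-sites, TTCNNNNGAA, is characteristic of STAT6, whereas other STAT proteins favour 3 bases. p300 is a histone acetyltransferase, HDAC1, HDAC2, and HDAC3 are deacetylases, and H3K27Ac marks active enhancers and promoters. The serine 5 form of RNA polymerase II (RNAPII-pS5) marks initiating polymerase and the serine 2 form (RNAPII-pS2) elongating polymerase. STAT6 itself was not analysed here.

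The sequences under the gained sites carried the STAT6 half-site spacing more often than the sequences under other PU.1 regions. Each window covered 200 bp around the centre of the higher IL-4 PU.1 peak, or of the highest peak for other regions, and both strands were searched. TTCNNNNGAA lay in 815 of the 3853 gained windows (21.2%), compared with 5.89% of all regions, 6.1% of regions with a peak in all 4 samples, and 1.92% of lost sites. To show how both motifs sit in such sites, 8 windows of 200 bp that hold it are printed, at the strongest gained sites with this spacing annotated to genes described below. They are from GRCm38, forward strand, touch no annotated RefSeq exon, and have TTCNNNNGAA and the PU.1 core GAGGAA, on either strand, in capitals. They lie at chr7:90026042-90026241, chr4:34457296-34457495, chr12:98311836-98312035, chr16:10745319-10745518, chr16:10702353-10702552, chr8:11049830-11050029, chr16:48832108-48832307, and chr4:66854637-66854836, in the order printed, and each name gives the annotated gene and the distance of the site from its start.
E230029C05Rik_-3Kb: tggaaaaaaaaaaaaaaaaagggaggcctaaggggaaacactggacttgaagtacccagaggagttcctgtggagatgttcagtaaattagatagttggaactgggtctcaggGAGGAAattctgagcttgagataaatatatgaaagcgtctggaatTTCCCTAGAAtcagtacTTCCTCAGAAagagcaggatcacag
Akirin2_-93.2Kb: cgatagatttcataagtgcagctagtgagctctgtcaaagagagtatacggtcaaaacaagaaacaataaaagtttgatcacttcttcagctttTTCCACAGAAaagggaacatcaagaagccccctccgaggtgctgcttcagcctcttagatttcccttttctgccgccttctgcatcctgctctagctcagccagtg
Gpr65_+43.3Kb: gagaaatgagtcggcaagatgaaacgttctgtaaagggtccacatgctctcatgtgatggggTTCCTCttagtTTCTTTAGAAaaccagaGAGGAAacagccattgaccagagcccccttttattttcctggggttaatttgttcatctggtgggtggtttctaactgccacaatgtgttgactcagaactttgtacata
Socs1_+40.1Kb: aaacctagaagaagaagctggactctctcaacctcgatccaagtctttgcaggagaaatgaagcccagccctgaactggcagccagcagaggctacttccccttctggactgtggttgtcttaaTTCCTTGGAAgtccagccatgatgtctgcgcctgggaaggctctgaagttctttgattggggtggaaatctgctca
Socs1_+83.1Kb: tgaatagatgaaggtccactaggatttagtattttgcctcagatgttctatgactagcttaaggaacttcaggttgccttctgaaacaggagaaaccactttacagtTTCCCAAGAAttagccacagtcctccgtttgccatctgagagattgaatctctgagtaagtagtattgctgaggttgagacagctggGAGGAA
Irs2_-41.5Kb: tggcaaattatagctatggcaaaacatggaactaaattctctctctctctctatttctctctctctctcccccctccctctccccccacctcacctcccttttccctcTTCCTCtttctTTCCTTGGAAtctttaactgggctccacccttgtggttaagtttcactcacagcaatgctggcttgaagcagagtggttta
Retnla_-10.3Kb: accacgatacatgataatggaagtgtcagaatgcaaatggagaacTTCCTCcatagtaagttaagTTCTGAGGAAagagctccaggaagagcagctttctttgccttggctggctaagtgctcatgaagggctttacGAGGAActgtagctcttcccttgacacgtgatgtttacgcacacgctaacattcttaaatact
Tlr4_+26.9Kb: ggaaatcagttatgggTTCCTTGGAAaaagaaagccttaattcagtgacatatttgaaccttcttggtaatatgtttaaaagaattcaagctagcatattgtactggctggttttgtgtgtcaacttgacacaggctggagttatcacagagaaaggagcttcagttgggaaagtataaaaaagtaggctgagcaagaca

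Both motifs lay within the same 200 bp in the windows at E230029C05Rik, Gpr65, Irs2, and Retnla and in the farther of the Socs1 windows, and the remaining 3 windows held the STAT6 spacing without GAGGAA. At Retnla_-10.3Kb 1 stretch served as both, since TTCTGAGGAA contains GAGGAA. The form TTCCTCAGAA, which is the same stretch read from the other strand and also occurs at E230029C05Rik_-3Kb, was the most frequent version, found in 52 gained windows of 378 windows in all. The form TTCCTAAGAA lay in 35 gained windows of 151 in all (23.2%). In windows that held it, the spacing lay at a median of 36 bp from the peak centre in gained and 45 bp in all windows. It was 47 bp for regions with a peak in all 4 samples. The spacing was within 25 bp of the centre in 36.1%, 29.1%, and 26.8% of these windows, in the same order. The distance of a randomly placed stretch was not computed, so closeness to the centre is not shown.

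The share of windows with TTCNNNNGAA followed the PU.1 score of the site. It was 13.7% where the lower of the 2 IL-4 scores was under 5, 21.8% from 5 to under 10, 44.2% from 10 to under 20, and 79.0% of the 81 sites at 20 or above. The PU.1 core GAGGAA did not follow the score in this way. It was in 50.7% of gained windows, 50.1% of all windows, 61.5% of windows with a peak in all 4 samples, and 46.9% of gained windows at a lower score of 20 or above. The STAT spacing of 3 bases, TTCNNNGAA, stood at 14.9% in gained and in all windows alike. AP-1 (TGANTCA) was in 10.4% of gained and 8.7% of all windows, and RUNX (TGTGGT) in 16.0% and 13.9%. C/EBP (TTGCNNAA) was in 10.9% and 10.6%, the ETS-IRF composite (GGAANNGAAA) in 7.06% and 6.81%, and EGR (GTGGGCG) in 0.675% and 0.754%. The searched letters overlap in part, since GGAANNGAAA and GAGGAA share their ETS part. Median GC content was 41.5% in gained and 41.0% in all windows. These shares are descriptions of letters in the windows and do not show binding. Regions outside the gained set were not split by score, so whether the rise with score is particular to gained sites was not tested.

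**Figure D1:**
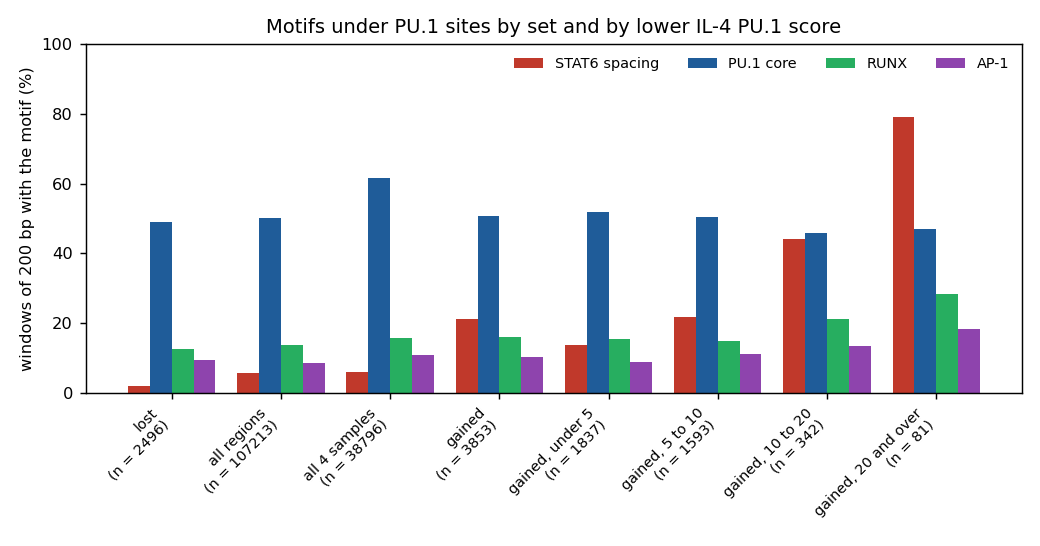
Share of 200 bp windows (vertical axis, percent) that hold TTCNNNNGAA (STAT6 spacing), GAGGAA (PU.1 core), TGTGGT (RUNX), or TGANTCA (AP-1), for lost sites, all regions, regions with a peak in all 4 samples, gained sites, and gained sites split by the lower of their 2 IL-4 PU.1 scores. The STAT6 spacing goes from 1.92% of lost sites to 79.0% of the 81 gained sites with a lower score of 20 or above, while the PU.1 core stays between 45.9% and 61.5%.

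The unit of the deposited peak score is not given in the sources used here. It need not be a −log10 q value, since all 52 MACS2 lists held some scores under 2, down to 1.3. The stated cut-off would not leave such scores. Scores are therefore printed as deposited and compared only within 1 antibody, while tests and log2 changes use centred log2 scores. Gained sites were weak to moderate by this score, with medians of 6.19 in IL-4 replicate 1 and 6.07 in replicate 2, against 16.92 and 16.01 for regions with a peak in all 4 samples. Scores of gained sites ran from 1.35 to 84.31 in replicate 1 and from 1.32 to 88.06 in replicate 2. The lower of the 2 scores had a median of 5.14, reached 10 at 423 sites, 20 at 81 sites, and 30 at 34 sites. These values belong to the choice of the sites and are given without a test. Just outside the rule lay 8221 regions with a peak in both IL-4 samples and exactly 1 untreated sample, whose untreated score had a median of 6.22, and 17343 regions with a peak in 1 IL-4 sample and in no untreated sample. Weak sites near the calling limit therefore made up much of the set. Among the upper 50% of IL-4 peaks by score, 510 regions met the rule. Among the upper 50% of untreated peaks by score, 105 met the reverse rule. The rule needs every sample, so leaving one out widened it to 14821 sites without IL-4 replicate 1, 10641 without IL-4 replicate 2, 9670 without untreated replicate 1, and 6351 without untreated replicate 2.

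**Figure D2:**
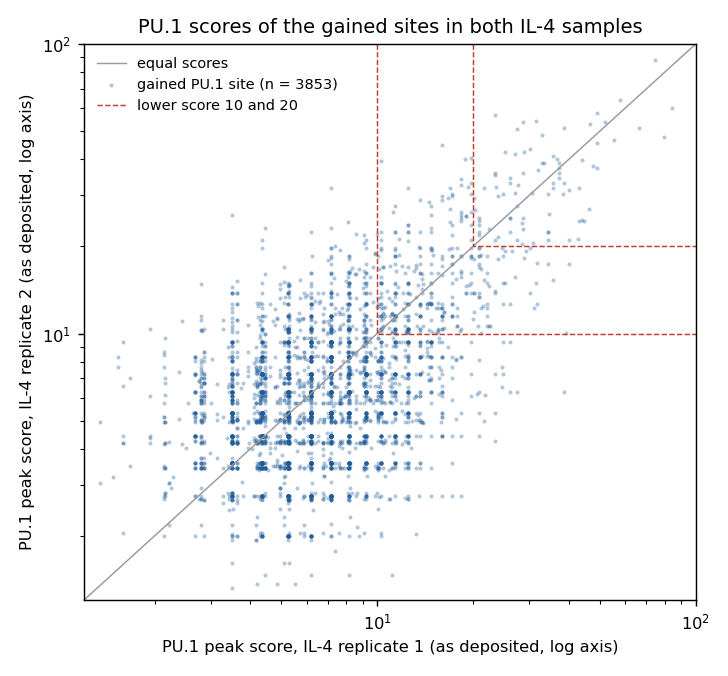
PU.1 peak score in IL-4 replicate 1 (horizontal) and replicate 2 (vertical) for each of the 3853 gained sites, on log axes, with the line of equal scores in grey and dashed limits where the lower score is 10 or 20. Most sites crowd at the lower left, around the medians of 6.19 and 6.07, and 81 sites lie inside the upper limit.

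Gained sites were mostly distal by annotation. Introns held 48.4% and intergenic sequence 44.1% of them, and 156 sites (4.05%) lay in promoters, compared with 40.4%, 51.6%, and 5.01% of all regions. Lost sites were intronic in 32.5% and intergenic in 59.3% of cases. The median distance of a gained site to the nearest annotated start was 24655 bp, near the 24189.5 bp of regions with a peak in all 4 samples and below the 38599 bp of lost sites. A LINE repeat was annotated at 13.9% of gained sites, 37.0% of lost sites, and 28.1% of all regions. Of the gained sites, 2133 (55.4%) had a PU.1 site with a peak in all 4 samples within 10 kb, at a median distance of 7748 bp. Gained sites also lay near each other, with another one within 10 kb for 557 of them (14.5%), against 6.73% for lost sites among themselves, a smaller set. Chromosome Y held 38 gained and 74 lost sites, in sequence that is repeated many times over.

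The cells were checked against cell type markers through RNAPII-pS5 peaks. At promoters this check was weak, since 2 of 6 macrophage markers, Cd68 and Mertk, had a peak in any of the 4 samples, and 1 of the 16 markers of T cells, B cells, neutrophils, and fibroblasts, S100a8, had one. Counting any peak whose nearest gene was the marker, a wider look added after seeing the data, 5 of 6 macrophage markers had a peak in all 4 samples, with no peak for Adgre1. So did 2 of 4 T cell markers (Cd4, Lck), 1 of 4 B cell markers (Ms4a1), and none of the neutrophil or fibroblast markers.

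p300 was the protein most often found at gained sites, and it rose there after IL-4. Untreated samples had a p300 peak at 21.1% and 39.3% of gained sites, and IL-4 samples at 57.2% and 57.7%, compared with 33.4%, 45.3%, 46.2%, and 46.8% of all regions. The IL-4 samples lay above both untreated samples, which differed from each other. In bulk chromatin, binding in more cells and more binding per cell cannot be told apart. Untreated replicate 1 had 44787 p300 peaks, while the other 3 samples had between 66710 and 69360. Of the 3853 sites, 2187 carried p300 peaks in 2 samples or more and were tested with limma on log2 scores at an unadjusted two-sided p of at most 0.05, the cut-off that the study used for differential binding. Among them 1083 were called higher and 94 lower, against 15% called higher and 11.7% called lower of the 50367 regions tested. The 1083 sites are 28.1% of all gained sites. Since 732 sites passed the filter through their IL-4 samples alone, the share of tested sites is not evidence in itself. The median log2 change was 1.19, and −0.05 over all regions tested. At an adjusted p of at most 0.05 over all regions, 611 gained sites were higher. Fits without 1 sample still needed 2 peaks, here and for the other antibodies. Without an IL-4 sample the 732 sites were therefore not tested. The median over the sites still tested was 0.65 without IL-4 replicate 1 and 0.73 without replicate 2. It was 1.47 without untreated replicate 1. Without centring of the samples 1 site was called lower.

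Sites with a p300 peak in every sample show the change without a value filled in for a missing peak. There were 765 of them, with a median log2 change of 0.43 compared with −0.13 over the 34685 regions of this kind. After centring of the samples, both IL-4 scores exceeded both untreated scores at 393 of the 765 (51.4%), beside 25% of all such regions. A p300 peak in both IL-4 samples and in neither untreated sample was found at 732 gained sites (19.0%), beside 3.35% of all regions. At lost sites the median change was −0.56, with 38 of 879 tested sites called higher and 278 lower. p300 followed the PU.1 score. All 81 sites with a lower score of 20 or above had a p300 peak in both IL-4 samples (100%), and 79 were called higher. Of the 1837 sites with a lower score under 5, 48.0% and 48.7% had a peak and 295 were called higher. Regions outside the gained set were not split by score.

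**Figure D3:**
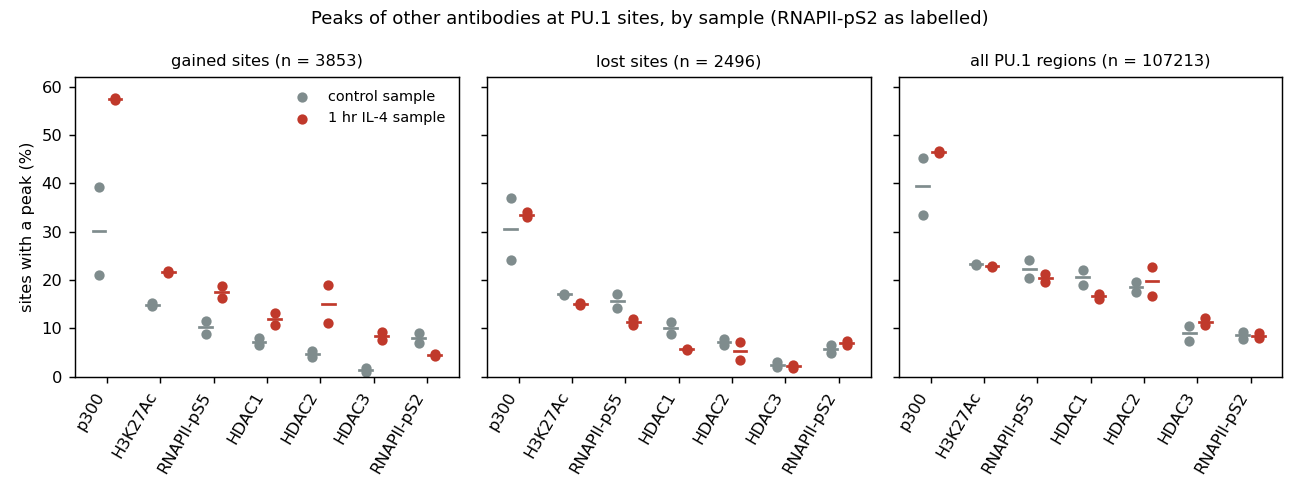
Share of sites with a peak (vertical axis, percent) for each of 7 antibodies in each untreated (grey) and 1 hr IL-4 (red) sample, as points with the mean of the 2 samples as a line, for gained sites, lost sites, and all PU.1 regions. At gained sites every antibody but RNAPII-pS2, shown by its labels, lies higher in both IL-4 samples, for example HDAC3 at 9.34% and 7.66% after 1.79% and 0.96%.

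H3K27Ac, whose deposited value is a tag signal in regions of fixed width, rose at gained sites as well. An H3K27Ac region overlapped 15.2% and 14.7% of gained sites before and 21.5% and 21.9% after IL-4, while over all regions the shares stayed at 23.2%, 23.3%, 22.9%, and 22.8%. Of 815 sites tested, 467 were called higher and 56 lower (limma), beside 25.7% and 27.9% of all regions tested. The 467 are 12.1% of all gained sites, and 225 of the tested sites had passed the filter through their IL-4 samples alone. The median log2 change was 0.60, and −0.02 over all regions. At the 461 sites with H3K27Ac in every sample the median change was 0.26. After centring, both IL-4 values exceeded both untreated values at 293 of them (63.6%), beside 37.5% of all such regions. An H3K27Ac region appeared in both IL-4 samples and in neither untreated sample at 225 sites (5.84%), beside 1.22% of all regions. The reverse was found at 20 gained sites (0.519%), and an absent region need not mean absent signal. At an adjusted p of at most 0.05, 433 gained sites were higher. Without IL-4 replicate 1 or 2, the 225 sites with H3K27Ac in the IL-4 samples alone were not tested. The median change was then 0.28 in both cases, and it was 0.62 or 0.64 without untreated replicate 1 or 2. Neighbouring sites can share 1 H3K27Ac region.

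RNAPII-pS5 increased at gained sites while its share over all regions did not. Its peaks overlapped 11.7% and 8.85% of gained sites in untreated samples and 18.8% and 16.4% after IL-4, with 24.2%, 20.4%, 21.2%, and 19.7% over all regions. Of 647 sites tested, 280 were called higher and 20 lower (limma), beside 9.85% and 10.1% of all regions tested, and 82 were higher at an adjusted p of at most 0.05. The 280 are 7.27% of all gained sites, and 237 of the tested sites had passed the filter through their IL-4 samples alone. The median log2 change was 0.77, and 0.01 over all regions, and it was 0.27 or 0.24 without IL-4 replicate 1 or 2. With a peak in every sample the median was 0.21, and 0.04 over all such regions. After centring, 114 of 251 such sites (45.4%) had both IL-4 scores above both untreated scores, beside 27.7% of all such regions. A new RNAPII-pS5 peak in both IL-4 samples was found at 237 sites (6.15%), beside 1.06% of all regions. The fits without IL-4 replicate 1 or 2 did not test the 237 sites with peaks in the IL-4 samples alone. Without untreated replicate 1 or 2 the median change was 0.83 or 0.79.

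The deacetylases covered fewer gained sites than p300 did, and the peaks of all 3 were more frequent there after IL-4. HDAC1 peaks overlapped 8.07% and 6.54% of gained sites before and 13.2% and 10.8% after IL-4. HDAC2 went from 5.27% and 4.18% to 19.0% and 11.2%, and HDAC3 from 1.79% and 0.96% to 9.34% and 7.66%. Over all regions HDAC1 went from 22.2% and 19.0% to 17.2% and 16.2%, HDAC2 from 19.5% and 17.6% to 22.8% and 16.7%, and HDAC3 from 10.6% and 7.45% to 12.1% and 10.6%. At gained sites both IL-4 samples lay above both untreated samples, although HDAC2 differed between the IL-4 replicates. HDAC1 was called higher at 131 and lower at 8 of 409 tested sites (limma), beside 5.24% and 5.26% of all regions tested. HDAC2 was called higher at 169 and lower at 7 of 438 sites, beside 6.75% and 5.24%. HDAC3 was called higher at 125 and lower at 3 of 240 sites, beside 11.5% and 5.85%. As shares of all gained sites, those called higher were 3.4%, 4.39%, and 3.24%, and 128, 245, and 173 tested sites had passed the filter through their IL-4 samples alone. Median log2 changes were 0.55, 0.91, and 1.10, compared with −0.05, −0.02, and 0.04 over all regions tested. Without IL-4 replicate 1 or 2, sites with peaks in the IL-4 samples alone were not tested. The medians were then 0.28 or 0.24 for HDAC1, 0.19 or 0.44 for HDAC2, and 0.80 or 0.56 for HDAC3. HDAC1 stood at 0.82 without untreated replicate 2. Without centring, HDAC1 was called higher at 85 and lower at 25 sites.

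A peak in both IL-4 samples and in neither untreated sample was found for HDAC1 at 128 sites (3.32%), beside 0.664% of all regions. The same held for HDAC2 at 245 sites (6.36%), beside 1.51%, and for HDAC3 at 173 sites (4.49%), beside 1.46%. At an adjusted p of at most 0.05 the counts of sites called higher were 0 for HDAC1 (131 at the unadjusted cut-off of the same limma fit), 5 for HDAC2, and 42 for HDAC3. Fits without 1 IL-4 sample did not test the 128, 245, and 173 sites above, so fewer sites could be called higher in them. The counts called lower were small and moved between 4 and 14 for HDAC1, 3 and 6 for HDAC2, and 1 and 4 for HDAC3 when 1 sample was left out. Where HDAC1 had a peak in every sample, at 73 sites, the median change was 0.06, beside 0.0052 over all such regions. It was 0.46 at the 31 such sites of HDAC2 and 0.87 at the 15 of HDAC3. The labels give HDAC3 the same antibody catalogue number as H3K27Ac, as do the study's written methods, while its reagent list gives a separate one. By overlap with the H3K27Ac regions of the matching sample, HDAC3 peaks (61.8% to 63.8%) resembled HDAC2 peaks (61.6% to 65.1%) and HDAC1 peaks (67.3% to 70.2%).

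**Figure D4:**
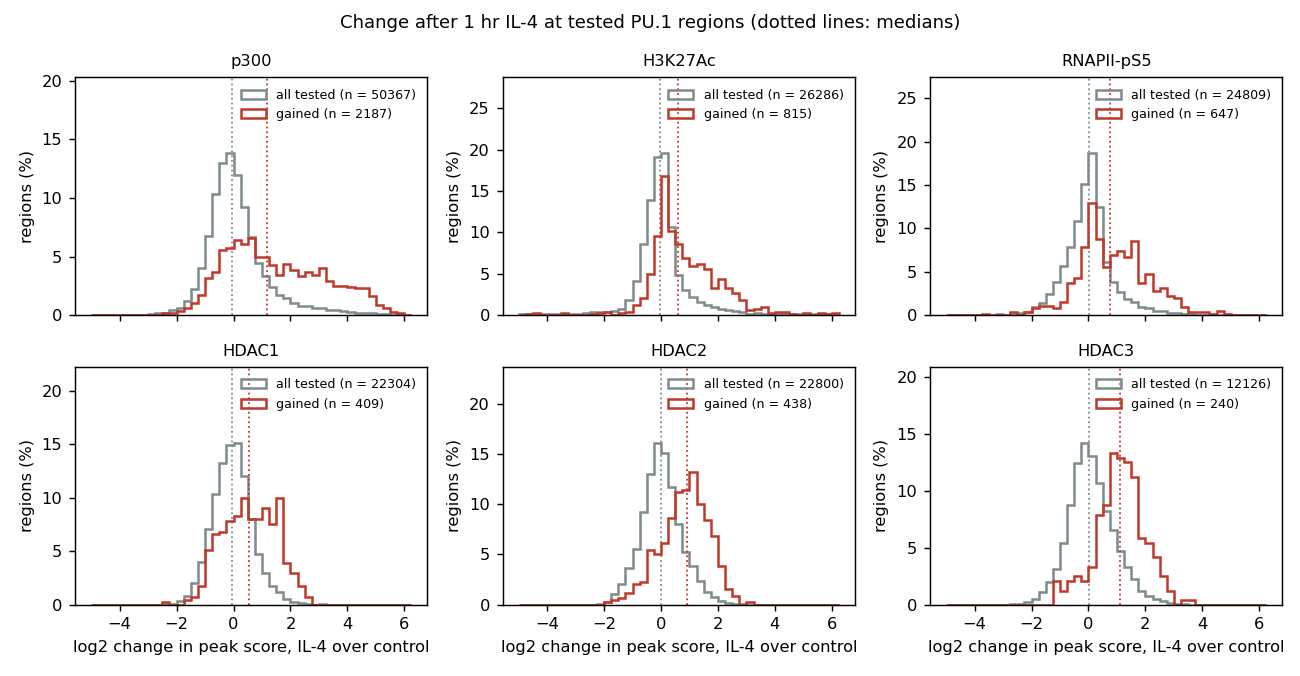
Distribution of the log2 change in peak score after 1 hr of IL-4 (horizontal axis) as a percent of regions (vertical axis) for 6 antibodies, with gained sites in red, all tested PU.1 regions in grey, and medians as dotted lines. The red curves reach further to the right in every panel, with medians from 0.55 (HDAC1) to 1.19 (p300), while the grey medians lie between −0.05 and 0.04.

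HDAC3, HDAC2, and H3K27Ac were rare at gained sites without p300. At the 1412 gained sites with no p300 peak in any sample, HDAC3 had a peak at 0% in all 4 samples, HDAC2 at no more than 0.283% in any, and H3K27Ac at 2.27%, 2.13%, 2.83%, and 2.76%. RNAPII-pS5 peaks overlapped 2.76% and 2.2% of these sites in untreated and 4.25% and 3.26% in IL-4 samples, and some were strong, as at Ccl7_+1.2Kb near a chemokine gene, with scores of 61.12 and 56.85 after IL-4 and none before. At the 732 sites where p300 appeared with IL-4, HDAC3 went from 0% in both untreated samples to 12.7% and 8.88%, HDAC2 from 0.546% and 0.273% to 27.2% and 14.8%, H3K27Ac from 3.96% and 3.69% to 19.3% and 18.7%, and RNAPII-pS5 from 2.73% and 1.91% to 17.4% and 14.8%. At the 765 sites with p300 throughout, H3K27Ac went from 44.3% and 42.5% to 49.8% and 51.6%, and HDAC3 from 8.37% and 4.18% to 22.7% and 20.9%. Over the 6 antibodies from p300 to RNAPII-pS5, 1251 gained sites (32.5%) were called higher for at least 1, 251 for 3 or more, and 19 for all 6. Calls to the lower side were made at 175 sites, of which 13 had 2 and none more. These joint counts, and the shares by p300 above, were not made over all PU.1 regions. Whether they are particular to gained sites was therefore not tested. No peak of the 6 antibodies in any sample was found at 1294 gained sites (33.6%), beside 46.1% of all regions.

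Sites with the STAT6 spacing had more of these calls. p300 was called higher at 578 of the 815 gained sites with TTCNNNNGAA (70.9%) and at 505 of the 3038 without it (16.6%), and over all regions at 39.2% of those with it and 5.02% of those without. RNAPII-pS5 was called higher at 19.6% and 3.95% of gained sites with and without it, H3K27Ac at 26.3% and 8.33%, and HDAC3 at 9.2% and 1.65%. Over all regions the shares with and without it were 12.0% and 1.67% for RNAPII-pS5, 22.4% and 5.28% for H3K27Ac, and 8.02% and 0.885% for HDAC3. For H3K27Ac and HDAC3 the shares at gained sites with the spacing were thus near those of all regions with it. The gained sites with the spacing also had higher PU.1 scores, with a median lower score of 6.28 against 4.66. So did all regions with an IL-4 peak, with medians of 8.27 against 6.28, so this is not particular to gained sites. The part of the score in the difference was not tested.

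RNAPII-pS2 went the other way by its labels. Its peaks overlapped 7.09% and 9.08% of gained sites in the samples labelled ctrl and 4.26% and 4.72% in those labelled 1 hr IL-4, and 7 of 281 tested sites were called higher and 93 lower (limma), beside 10.9% and 12.2% of all regions tested. The median log2 change was −0.51, and −0.31 or −0.23 without the sample labelled ctrl replicate 1 or 2. A peak in both samples labelled IL-4 and in neither labelled ctrl occurred at 4 sites (0.104%), beside 0.764% of all regions. Within these 4 lists the names given to the peaks carry the opposite treatment to the labels, which they do in no other 1 hr list with treatment in its peak names. The labels were kept, so the direction is that of the libraries as labelled. Without a sample labelled ctrl, sites with peaks only in the samples labelled ctrl, 93 in number, were not tested. The fit still needed 2 peaks. Without IL-4 replicate 1 the count called higher was 4. No site was called higher and 47 were called lower at an adjusted p of at most 0.05.

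After 24 hr of IL-4, in a separate set of samples, RNAPII-pS5 and RNAPII-pS2 were both more frequent at the gained sites. RNAPII-pS5 peaks overlapped 5.89% and 5.4% of gained sites in ctrl/ctrl samples and 9.42% and 10.2% in IL-4 PT/ctrl samples. In the limma fit 140 of 358 tested sites were called higher and 21 lower, beside 18.2% and 13.6% of all regions tested, with a median log2 change of 0.65 against 0.05 over all regions. A new peak in both IL-4 PT/ctrl samples was found at 135 sites (3.5%), beside 2.12% of all regions. At an adjusted p of at most 0.05 the count called higher was 67. Fits without 1 sample still needed 2 peaks. Without an IL-4 PT/ctrl sample, the 135 sites with peaks in those samples alone were therefore not tested. The median change over the sites still tested was 0.24 without IL-4 PT/ctrl replicate 1 and 0.14 without replicate 2. Without ctrl/ctrl replicate 1 or 2 the count called lower was 5 or 9. At the 109 sites with a peak in all 4 samples the median change was 0.13. RNAPII-pS2 peaks overlapped 8.59% and 8.51% of gained sites in ctrl/ctrl and 12.7% and 13.3% in IL-4 PT/ctrl samples, with over all regions 19.7%, 19.6%, 17.5%, and 18.4%.

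The p65 subunit of NF-κB, which LPS drives into the nucleus, overlapped few gained sites without LPS. Its peaks covered 1.74% and 2.18% of them in ctrl/ctrl samples and 4.67% and 4.39% in IL-4 PT/ctrl samples. With LPS alone they covered 10.4% in both replicates, and with LPS after IL-4 pretreatment 17.3% and 18.7%. Over all regions the shares under LPS were 17.2% and 17.6% without and 20.4% and 21.3% with IL-4 pretreatment, and the lists of IL-4 PT/LPS samples were longer, with 36738 and 38955 peaks against 26305 and 26820. The part of list length in the rise was not tested.

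The 15 gained sites with the highest lower PU.1 score were all intronic or intergenic, 14 held TTCNNNNGAA, and all 15 were called higher for p300. H3K27Ac was called higher at 9 of them, HDAC1, HDAC3, and RNAPII-pS5 at 7 each, and HDAC2 at 6. The strongest, E230029C05Rik_-3Kb (chr7:90025486-90026508), is intergenic and had PU.1 scores of 74.34 and 88.06. Its p300 scores were 3.44 and 26.43 in untreated and 182.75 and 169.93 in IL-4 samples, a log2 change of 3.48 (limma, adjusted p = 0.0327). HDAC1, HDAC2, HDAC3, and RNAPII-pS5 had no peak there in either untreated sample and a peak in both IL-4 samples, and no H3K27Ac region overlapped it. Akirin2_-93.2Kb (chr4:34457171-34457631) was called higher for all 6. Its p300 scores rose from 4.29 and 15.23 to 262.45 and 261.91, a log2 change of 4.29 (limma, adjusted p = 0.0202), and its H3K27Ac signal from no region in either untreated sample to 62.2 and 54.2.

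Gpr65_+43.3Kb (chr12:98311289-98312114), 43.3 kb from the start of a proton-sensing receptor gene, was also called higher for all 6. RNAPII-pS5 had no untreated peak and scores of 28.75 and 21.76 after 1 hr of IL-4, and again none in ctrl/ctrl samples and 21.57 and 25.77 after 24 hr. Its p65 score was 20.63 and 15.63 in IL-4 PT/ctrl, 10.78 and 9.7 in IL-4 PT/LPS, and no peak was present in ctrl/ctrl or ctrl/LPS samples. Other strong sites had few partners. Itsn2_+5.2Kb, in the first intron of an endocytic scaffold gene, had PU.1 scores of 57.65 and 63.85 and p300 scores of 43.38 and 47.11 after IL-4 with none before, and no peak of the other 5 antibodies in any sample. Zeb2_-86Kb, upstream of a zinc finger repressor gene, had p300 scores of 109.21 and 111.45 after IL-4 and none before, with no HDAC, H3K27Ac, or RNAPII-pS5 peak.

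Socs1, a feedback inhibitor of Janus kinase signalling that IL-4 induces, collected 8 gained sites among its 26 PU.1 regions. It had no lost site, beside 2.33% of all regions, a rate at which 26 regions would hold few or none. The gained sites lay between 3.5 kb and 83.1 kb downstream of its start, and 3 of the 8 held TTCNNNNGAA. p300 was called higher at 5 of them and RNAPII-pS5 at 5. At Socs1_+40.1Kb (chr16:10745248-10745591) p300 had no untreated peak and scores of 149.65 and 164.44 after IL-4, and H3K27Ac appeared at 47.7 and 48.6. At Socs1_+83.1Kb (chr16:10702137-10702770), within an intron of a neighbouring gene, p300 went from 6.38 and 21.79 to 224.43 and 205.5, a log2 change of 3.46 (limma, adjusted p = 0.0202). HDAC3 had no untreated peak there and scores of 16.15 and 18.69 after IL-4. The sites nearest the gene, Socs1_+3.5Kb and Socs1_+4.4Kb, had no p300 peak in any sample. Both lie under 1 RNAPII-pS5 peak, absent from untreated samples and at 19.68 and 21.29 after IL-4 (limma, adjusted p = 0.028), and at 16.4 and 15.55 after 24 hr. RNAPII-pS2 at this place had scores of 61.42 and 51.18 in the samples labelled ctrl and no peak in those labelled IL-4.

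**Figure D5:**
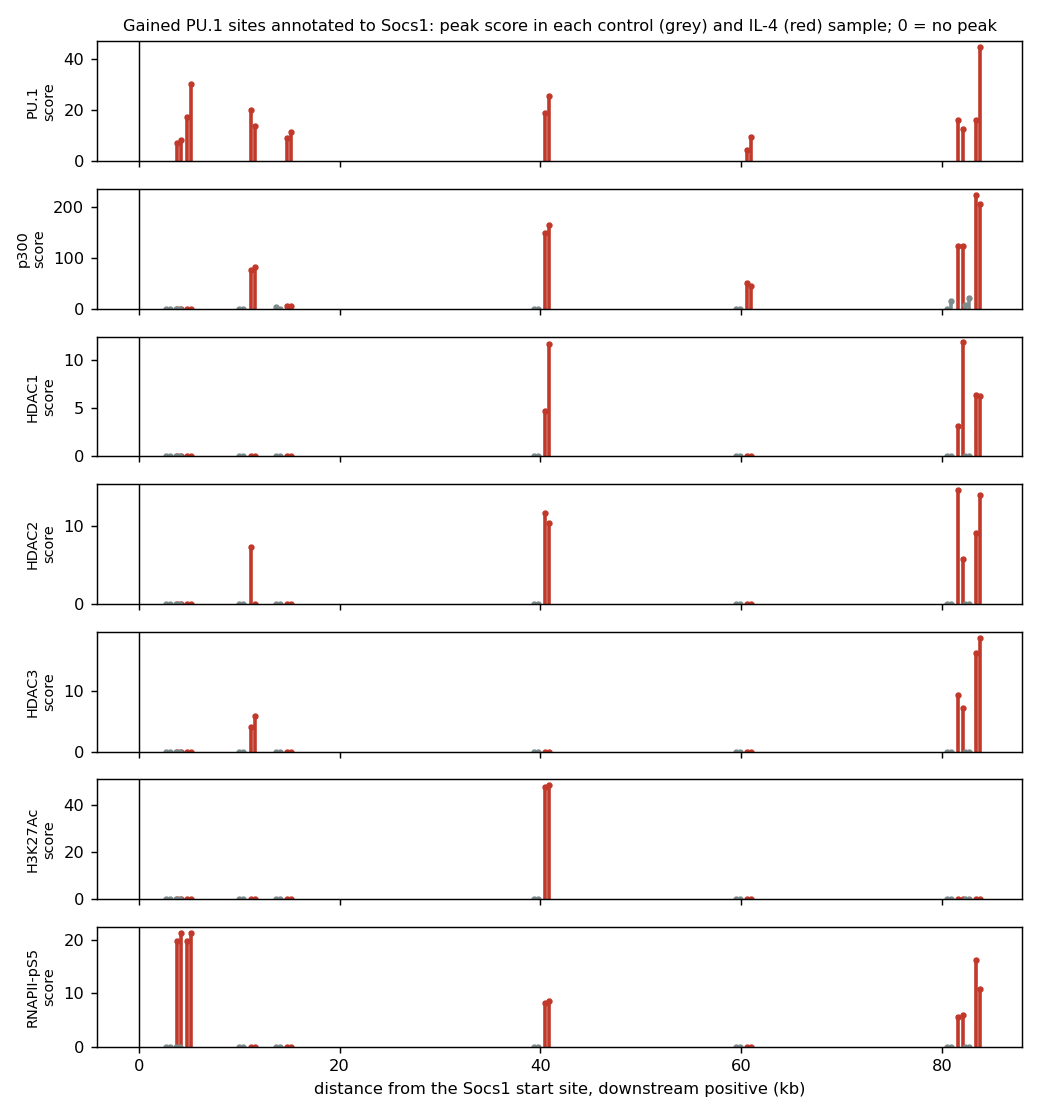
Peak scores at the 8 gained PU.1 sites annotated to Socs1 against their distance from the Socs1 start site (horizontal axis, kb), 1 panel per antibody, with untreated samples in grey, IL-4 samples in red, bars set slightly apart, and 0 where no peak was listed. p300 rises to 224.43 and 205.5 at the farthest site, 83.1 kb away, while the sites nearest the start carry RNAPII-pS5 (19.68 and 21.29) and no p300.

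Among the other receptor and signalling genes, Irs2, an adaptor phosphorylated by the IL-4 receptor, had 3 gained sites. Irs2_-41.5Kb (chr8:11049753-11050128) was called higher for all 6 antibodies. Its p300 went from no peak and 30.12 to 171.24 and 190.45 (limma, adjusted p = 0.0447), and its H3K27Ac from 14.1 and 17.8 to 66.2 and 59.0 (adjusted p = 0.00489). Irs2_-12.6Kb was called higher for 4. Irs2_-8.4Kb was different, with p300 scores of 49.98 and 112.3 before and 69.14 and 61.22 after IL-4, where the samples overlap, although the centred fit called it lower (limma, unadjusted p = 0.0277, adjusted p = 0.137). The fourth site of this list was at the promoter of Stat5a, a related signal transducer, and was not called for any antibody. In all, 2 of the 14 genes of the receptor and signalling list had a gained site (14.3%), near the 16.4% of all annotated genes.

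Genes of alternative activation had the highest share of gained PU.1 regions of the 7 lists compiled for this work, 19 of 145 (13.1%), beside 3.59% of all regions. By genes, 9 of 19 had a gained site (47.4%), below the 8 of 13 macrophage lineage factors (61.5%), which had more PU.1 regions per gene. None of the 145 regions of the alternative activation genes was lost, beside 2.33% of all regions, a rate at which few would be. Of the 19 sites, 8 were called higher for p300 and 1 lower, 2 higher for RNAPII-pS5, 1 for H3K27Ac, and none for an HDAC. Over all gained sites the shares called higher were 28.1%, 7.27%, and 12.1%, and 3.24% to 4.39% for the HDACs, so a list of this size would hold few HDAC calls at the overall rate. Arg1, which encodes arginase, had 4 gained sites. Arg1_-0.1Kb, at its promoter, had PU.1 scores of 15.88 and 4.96 and p300 scores of 124.2 and 126.47 after IL-4 with no untreated peak (limma, log2 change 4.64, adjusted p = 0.029), and none of the Arg1 sites held TTCNNNNGAA. Slc7a2_-0.6Kb, at the promoter of an arginine transporter, gained p300 (no peak and 5.68 before, 172.85 and 171.55 after, adjusted p = 0.0202 in limma) and H3K27Ac (none before, 57.9 and 60.1 after). Retnla_-10.3Kb, upstream of the gene for resistin-like molecule alpha, had p300 scores of 23.54 and 137.56 after IL-4 and none before (unadjusted p = 0.0208, adjusted p = 0.119 in limma).

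The mannose receptor gene Mrc1 held 5 gained sites, and 8 more were annotated to Mir511, a microRNA gene, and lay in introns of Mrc1. PU.1 scores of the 13 sites ran from 2.68 to 15.25 in replicate 1 and from 2.0 to 17.32 in replicate 2, and 1 of them held TTCNNNNGAA. p300 was called higher at 2 and RNAPII-pS5 at 2. At Mrc1_+2.1Kb RNAPII-pS5 went from 3.06 and no peak to 60.17 and 53.71, a log2 change of 4.47 (limma, adjusted p = 0.0228). It was absent from ctrl/ctrl samples of the later set and at 26.09 and 35.46 after 24 hr of IL-4. Pdcd1lg2, the gene for PD-L2, had 4 gained sites, of which 1 was called higher for p300.

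The other lists were closer to the background. Of PU.1 regions annotated to cytokine feedback genes 13 of 176 were gained (7.39%), 8 of them at Socs1, and of those of growth and vasoactive factors 11 of 195 (5.64%). The share was 4.73% for IL-4-linked transcription factors, 4.53% for macrophage lineage factors, 3.56% for inflammatory genes, and 3.03% for receptor and signalling genes. Edn1_-9Kb, near the endothelin gene, had p300 scores of 210.0 and 211.22 after IL-4 and none before (limma, log2 change 5.39, adjusted p = 0.0253). Il10_+14.2Kb, near the interleukin 10 gene, rose from 8.11 and 18.02 to 128.61 and 123.41 (adjusted p = 0.0253, limma). At the promoter of Irf4, a transcription factor of alternative activation, H3K27Ac rose from 24.9 and 26.9 to 77.1 and 59.0 (adjusted p = 0.0108, limma) and p300 from no peak and 6.63 to 20.09 and 16.83 (adjusted p = 0.0817).

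Lineage genes also had gained sites. Csf1r_-18.4Kb, upstream of the M-CSF receptor gene, had PU.1 scores of 34.32 and 30.37 and p300 scores of 8.64 and 25.78 before and 181.92 and 193.19 after IL-4 (limma, log2 change 2.92, adjusted p = 0.0204). Its RNAPII-pS5 had no untreated peak and scores of 15.67 and 14.73 after 1 hr, whereas in the 24 hr set it stood at 14.41 and 8.62 in ctrl/ctrl and 5.21 and 4.81 in IL-4 PT/ctrl samples. Irf8_-31.9Kb, near a lineage factor, went from 4.17 and 10.27 to 121.38 and 114.31 for p300 (adjusted p = 0.0204, limma). Of inflammatory genes, the LPS receptor gene Tlr4 had 5 gained sites, of which Tlr4_+26.9Kb had PU.1 scores of 28.44 and 24.17 and p300 scores of 96.81 and 67.58 after IL-4 with none before (adjusted p = 0.0373, limma).

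The study grouped its IL-4-regulated genes, from RNA-seq, into induced clusters A to D and repressed cluster E. Of the 32 genes of cluster A 21 had a gained site (65.6%) and 2 a lost site (6.25%). In cluster B 50.6%, in C 49.0%, in D 20.0%, and in E 19.8% of genes had a gained site, beside 16.4% of all 17263 annotated genes, and 14.0%, 14.0%, 8.98%, and 22.4% had a lost one, beside 11.9%. As a share of the PU.1 regions annotated to each cluster, which sets aside the number of regions per gene, gained sites made up 16.5% in A, 8.44% in B, 7.6% in C, 4.46% in D, and 2.59% in E, beside 3.59% of all regions. At least 1 of the 6 antibodies was called higher at 32.5% of all gained sites. The share was 67.3% in cluster A (33 of 49 sites), 39.2% in B, 38.8% in C, 37.2% in D, and 29.7% in E, the last near the overall share. A lower call was made at none of the sites of A and at 21 of the 172 of E, compared with 175 of all 3853. These calls were not counted over all PU.1 regions of each cluster. Whether the differences between clusters are particular to gained sites was therefore not tested.

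The 3853 sites were annotated to 2825 genes, and 216 genes had 3 or more, while 75 genes had 3 or more lost sites. Cd44, the hyaluronan receptor gene, had 6 gained of 49 regions, Fyn, a Src-family kinase gene, 6 of 35, and Bcl2, an inhibitor of apoptosis, 5 of 32. None of these genes had a lost region, but with 2.33% of all regions lost, few or none would be at that rate. Hipk1 had 5 gained of 15 regions, and Inhba, which encodes an activin subunit, 5 of 30. The highest counts were 11 of 66 regions for H2afy3 and 10 of 54 for 2810055G20Rik. Gm20871, an annotation on chromosome Y, had 9 gained and 10 lost of 335 regions.

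The 15 sites called higher for the most antibodies, each for all 6, were chosen by those calls and are given as a description. Among them 11 held TTCNNNNGAA and their p300 scores were 139.79 to 352.28 in IL-4 replicate 1. Pim3_-6.5Kb, upstream of a kinase gene, had HDAC3 scores of 41.79 and 30.06 and RNAPII-pS5 scores of 44.02 and 28.99 after IL-4, with no untreated peak of either (limma, adjusted p = 0.000434 and 0.0249). Zc3h12a_-3.9Kb, upstream of the gene for the RNase regnase-1, had low PU.1 scores of 6.77 and 8.27. Its H3K27Ac signal was 577.1 and 598.1 after IL-4, with no untreated region overlapping or within 500 bp. Regions were called in each sample alone, so an absent region need not mean absent signal. The reverse was listed at Ado_-47.5Kb, with H3K27Ac at 306.0 and 274.9 before and no region after IL-4. At Zc3h12a_-3.9Kb p300 rose from 29.02 and 68.25 to 255.46 and 254.14 (limma, adjusted p = 0.0373). Adipoq_+13.3Kb rose in RNAPII-pS5 from no peak to 31.73 and 35.93, and Gda_+95.6Kb had the highest p300 scores of the 15, 352.28 and 334.0, after 8.37 and 40.85.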

How the data were processed

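ChIP-seq peaks of 56 samples were analysed, 32 of them from the 1 hr experiment, with 2 samples per group. Per the labels and the study's methods, reads were aligned to mm10 and peaks were called per sample with MACS2 (q of at most 0.01), and H3K27Ac regions with HOMER findPeaks. Blacklisted regions were removed. The submitters' processing notes list BWA 0.7.10, SAMtools 0.1.19, HOMER 4.2, and MACS2 2.0.10. The authors deposited a peak score whose unit no source used here names. A −log10 q value was considered, but between 0.00484% and 0.938% of the scores of each list lie under 2, which the stated cut-off would not leave. For H3K27Ac the authors deposited a tag signal normalised per region. No read counts or read depth were used, so the depth is unknown and no counting interval is given. The 1 hr lists held between 8440 and 71027 peaks, and 0 pairs of lists were identical.

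PU.1 peaks were merged with Python 3.11.15 (pandas 2.3.3, NumPy 2.4.6). For each antibody, the log2 of the highest overlapping score was tested over all PU.1 regions with a peak in at least 2 of 4 samples, with limma 3.58.1 in R 4.3.3 (two-sided). A missing peak received the 1st percentile of the antibody's scores (between 2.43 and 3.02, and 10.6 for H3K27Ac). Lower scores were raised to the same value, and samples were centred on regions with a peak in all 4. Calls used p of at most 0.05, as the study did, with Benjamini-Hochberg values over all regions beside them. Fold changes at sites without an untreated peak depend on the value given to a missing peak, and since 2 missing peaks receive the same value, the spread at such sites is understated and their p-values are too small. An exact permutation test of 2 against 2 samples cannot go below p = 0.333 and was not used. Only the limma fit was tried on simulated log2 scores. The simulation gave missing peaks no shared value, so it does not bear on the p-values of such sites.

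Locations and genes are those of the deposited annotation. Windows were read from GRCm38, where 0 of 1610346 peaks passed a chromosome end and 81.0% of 3804 gained sites with a matched transcript placed its start within 10 bp of the RefSeq one. Named sites are the 15 with the highest lower PU.1 score, those annotated to 115 genes in 7 lists, the 15 called higher for the most antibodies, and those of genes with 3 or more gained sites. The sites, lists, and motifs were chosen with earlier results of these data known. The study's gene clusters were used as gene names alone, from RNA-seq not analysed here. Alternatives covered the missing value, centring, filter, peak threshold, overlap, adjustment, replicate block, and leaving out each sample. No sequence from chromosome 18 is given.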

Additional observations from a re-analysis of the deposited data

Results flagged for a closer look

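By the labels, RNAPII-pS2 at gained PU.1 sites differed in direction between the 2 times. The mean share of gained sites with a peak changed by −3.59 percentage points after 1 hr of IL-4 and by 4.43 percentage points after 24 hr. Every sample followed its own direction, with 7.09% and 9.08% against 4.26% and 4.72% at 1 hr and 8.59% and 8.51% against 12.7% and 13.3% at 24 hr. The difference between the times was not tested. Peak names in all 4 of the 1 hr RNAPII-pS2 lists carry the treatment opposite to the label, so the sign of the 1 hr value holds only for the libraries as labelled. Read by the peak names, the 1 hr shares would be 4.26% and 4.72% in untreated and 7.09% and 9.08% in IL-4 samples, higher after IL-4 at both times. Which reading is right was not settled here.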

How the results depend on the processing

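No median change altered its sign under the alternatives run. The balance of calls did, in fits without 1 sample of RNAPII-pS5 after 24 hr or of RNAPII-pS2. Those fits still needed 2 peaks, so sites with peaks only in the group that lost a sample were not tested. Such sites numbered 135 for RNAPII-pS5 after 24 hr (IL-4 PT/ctrl alone) and 93 for RNAPII-pS2 (labelled ctrl alone). The balance therefore does not show dependence on 1 sample. The number of gained sites was 3817 with 50% overlap, 3290 with no untreated peak within 500 bp, 510 for the upper 50% of IL-4 peaks, and 6351 to 14821 with 1 sample left out, which loosens the rule by construction. With Benjamini-Hochberg adjustment the sites called higher numbered 611 for p300, 0 for HDAC1 (131 unadjusted), 5 for HDAC2, 42 for HDAC3, 433 for H3K27Ac, 82 and 67 for RNAPII-pS5 after 1 hr and 24 hr, and 0 for RNAPII-pS2 (7 unadjusted). With the upper 50% of peaks, which leaves fewer peaks to test, they numbered 46 for HDAC1, 87 for HDAC2, 67 for HDAC3, 184 for H3K27Ac, 88 for RNAPII-pS5, and 74 after 24 hr. Without centring HDAC1 gave 85 higher and 25 lower, and the cause was not tested. Leaving out 1 sample, with a lone sample assumed to vary like the others, gave 522 to 1264 for p300, 17 to 97 for HDAC1, 18 to 146 for HDAC2, 15 to 120 for HDAC3, 231 to 448 for H3K27Ac, 51 to 246 (RNAPII-pS5, 1 hr), 15 to 105 (RNAPII-pS5, 24 hr), and 4 to 11 (RNAPII-pS2). An H3K27Ac region within 500 bp, an alternative chosen after seeing the data, gave 573 sites called higher.

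Deviations of same-numbered samples from their group means were close to uncorrelated (−0.044 to 0.08). With 2 samples per group this cannot show whether same-numbered samples belong together. The replicate block gave 1117 sites called higher for p300, 131 for HDAC1, 173 for HDAC2, 125 for HDAC3, 441 for H3K27Ac, 285 and 131 for RNAPII-pS5 after 1 hr and 24 hr, and 10 for RNAPII-pS2. Peak scores without read depth limit the precision, and a site without a listed peak may hold signal under the calling threshold.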

Other observations

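Lost PU.1 sites, with peaks in both untreated and in neither IL-4 sample, had more lower than higher calls for several antibodies. H3K27Ac was called lower at 148 and higher at 55 of 427 tested lost sites (limma), against 27.9% lower and 25.7% higher over all regions tested. HDAC1 was called lower at 20 and higher at 3 of 222 sites (5.26% and 5.24% over all regions), HDAC2 at 21 and 5 of 179 (5.24% and 6.75%), HDAC3 at 10 and 0 of 62 (5.85% and 11.5%), and RNAPII-pS5 at 56 and 12 of 365 (10.1% and 9.85%). Median log2 changes were −0.17 for H3K27Ac and HDAC1, −0.24 for HDAC2, −0.51 for HDAC3, and −0.10 for RNAPII-pS5. After 24 hr RNAPII-pS5 was called higher at 46 and lower at 27 of 235 lost sites, against 18.2% and 13.6% over all regions.

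p65 peaks under LPS at single gained sites differed with IL-4 pretreatment. Edn1_-9Kb had none in ctrl/LPS samples and scores of 22.99 and 16.81 in IL-4 PT/LPS samples, and Slc7a2_-0.6Kb had none and then 24.52 and 28.58. Irf8_-31.9Kb had 6.55 and 15.62 and then 46.0 and 43.18. The reverse also occurred, as at 1700016G22Rik_+29.1Kb, with scores of 83.23 and 85.48 under LPS and 49.32 and 49.41 under LPS after IL-4 pretreatment. These values were picked after they were seen and were not tested.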
